A study of Homo sapiens with 2 samples.

Results

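The 10 genes described here are YAP1 and WWTR1 (which encodes TAZ), the transcriptional coactivators at the end of the Hippo pathway, their DNA-binding partners TEAD1, TEAD3 and TEAD4, and 5 widely used target genes, CCN1, CCN2, AMOTL2, LATS2 and NUAK2. They were chosen by gene symbol from 22411 named genes, and each was measured by 1 transcript cluster (a set of probes read as 1 transcript unit) that carries no other symbol. Expression was compared in 769-P cells, a human line established from a clear-cell carcinoma of the kidney. The FOXK2 array held RNA of 769-P cells given a lentiviral EGFP and puromycin vector with the full FOXK2 coding sequence, a forkhead transcription factor, and the empty vector array held RNA of 769-P cells given the EGFP vector without it. The cells of both groups were grown in RPMI-1640 with fetal bovine serum, and the labels do not say how dense the cultures were or whether the lines were pools or clones.

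In the Hippo pathway, the kinases MST1 and MST2 (genes STK4 and STK3) switch on LATS1 and LATS2, which phosphorylate YAP and TAZ and so keep them in the cytoplasm or send them to degradation. When the kinases are quiet, as in spread cells on a stiff surface or in serum, YAP and TAZ enter the nucleus and bind TEAD proteins, which carry the contact to DNA. Much of this control acts on the proteins, so mRNA of YAP1 and WWTR1 measures their supply and mRNA of the target genes is the nearer readout of their output. Several targets feed back: LATS2 and AMOTL2 restrain YAP, and NUAK2, a kinase, has been reported to favour it.

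TEAD proteins bind DNA at the letters GGAATG, and the forkhead letters GTAAACA mark sites that factors such as FOXK2 can bind. The promoter bases in front of 4 genes are shown because NUAK2 has the largest difference of the 10 genes, CCN2 and AMOTL2 are textbook TEAD targets, and WWTR1 is the only matched gene of the 10 with the forkhead letters. They are the 250 bases before the gene start, on the gene's own strand from 5′ to 3′, from RefSeq on GRCh38.p14. Capitals mark GGAATG or its reverse complement in the first 3 and GTAAACA in WWTR1.
NUAK2, chr1:205321746-205321995, minus strand: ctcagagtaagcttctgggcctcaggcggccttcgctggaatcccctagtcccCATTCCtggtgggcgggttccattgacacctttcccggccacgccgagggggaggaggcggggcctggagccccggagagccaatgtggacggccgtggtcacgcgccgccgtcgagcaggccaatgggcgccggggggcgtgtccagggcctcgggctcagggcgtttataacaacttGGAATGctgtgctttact
CCN2, chr6:131951373-131951622, minus strand: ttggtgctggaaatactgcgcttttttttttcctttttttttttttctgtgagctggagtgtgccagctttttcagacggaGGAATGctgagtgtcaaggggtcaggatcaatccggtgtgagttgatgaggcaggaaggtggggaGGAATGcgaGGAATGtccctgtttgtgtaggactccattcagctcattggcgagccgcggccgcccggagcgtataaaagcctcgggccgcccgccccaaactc
AMOTL2, chr3:134374448-134374697, minus strand: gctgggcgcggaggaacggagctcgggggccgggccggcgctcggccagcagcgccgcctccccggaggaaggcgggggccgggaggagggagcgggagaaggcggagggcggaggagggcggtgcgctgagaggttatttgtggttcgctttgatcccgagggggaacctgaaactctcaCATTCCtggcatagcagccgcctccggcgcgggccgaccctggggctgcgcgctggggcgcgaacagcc
WWTR1, chr3:149703274-149703523, minus strand: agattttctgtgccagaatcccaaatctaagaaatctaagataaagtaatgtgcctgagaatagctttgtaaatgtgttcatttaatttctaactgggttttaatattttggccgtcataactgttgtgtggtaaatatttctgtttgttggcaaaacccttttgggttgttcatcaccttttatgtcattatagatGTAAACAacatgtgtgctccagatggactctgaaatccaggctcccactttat

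The CCN2 stretch held GGAATG 3 times on the sense strand, starting 169, 104 and 95 bases before the gene start. In NUAK2 it stood 18 bases before the start on the sense strand and again, on the other strand, 197 bases before it. The single match in AMOTL2 lay on the other strand, 69 bases before the start. WWTR1 held GTAAACA 53 bases before the start of its outer promoter. Windows of 300 bases, from 250 before to 50 after the start, were searched on both strands for 7 of the 10 genes, which have 9 promoters between them. GGAATG was found in 5 of the 9, those of YAP1, CCN2, AMOTL2, LATS2 and NUAK2, against 14.0% of all 35116 promoters. GTAAACA was found in 1 of the 9, against 3.42% of all promoters. TGANTCA, the AP-1 site, and the CArG box of the serum response factor were found in none of the 9, against 7.71% and 1.29% of all promoters. These are matches of letters, with no overlap between the motifs, and none of them shows that a factor was bound.

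Each value below is the authors' log2 expression value, and each difference is that value in the FOXK2 array less the value in the empty vector array. Since each group has 1 array, no difference has a replicate check or an error, and none was tested. A gene was counted as lower or higher if its difference was at least 1 in size, which is 2-fold, and its mean over both arrays reached the level limit, set at 5.24, which is the median over the transcript clusters that carry a single gene symbol. 11263 genes reached it. Of these, 344 were at least 2-fold lower with FOXK2 and 240 at least 2-fold higher. The split was 231 to 269 after the running median of neighbouring genes on the chromosome was subtracted. It was 291 to 297 after removal of the loess trend on level, 313 to 260 after quantile normalization and 416 to 215 with each array centred on its median. FOXK2 itself stood at 13.82 in the FOXK2 array and 9.36 in the empty vector array. The renal epithelial markers PAX8, PAX2, KRT8, KRT18, LRP2 and CUBN were all above the level limit in the mean. LRP2 and CUBN were far higher with FOXK2, with differences of 3.05 and 3.43, while the other 4 differed by -0.37 to -0.08. All 9 measured markers of leukocytes, endothelium and fibroblasts were below it, at 3.14 to 4.57 with FOXK2 and 3.35 to 4.52 with empty vector.

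Of the 10 genes, 9 had a negative difference, NUAK2 was at least 2-fold lower and none was 2-fold higher. Under the other scalings 8 to 10 differences were negative, as TEAD3 and AMOTL2 changed sign. All 10 were negative when each array was centred on its median, where 64.0% of all genes above the limit were negative. That share was 48.8% after removal of the loess trend on level, where 9 of the 10 were negative. In RNA of a whole culture, fewer cells that express a gene and less RNA per cell cannot be told apart. CCN2 lay below the level limit. Among the 9 genes above it, 1 was at least 2-fold lower, against 3.05% of all genes above the limit, and none was 2-fold higher, against 2.13%. Negative differences were found in 8 of these 9 and in 55.6% of all genes above the limit. The median over the 10 genes was -0.32. Over the 9 above the limit it was -0.37, beside -0.05 over all genes above the limit. Apart from NUAK2 the differences were small: the other 9 genes ran between -0.52 and 0.03, inside the range of -1.09 to 0.93 that holds the middle 95% of all genes. Of the 10, 5 lay inside the middle of the distribution between its quartiles at -0.31 and 0.17. The other 5 lay below the lower quartile, where 25% of all genes above the limit lie.

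**Figure D1:**
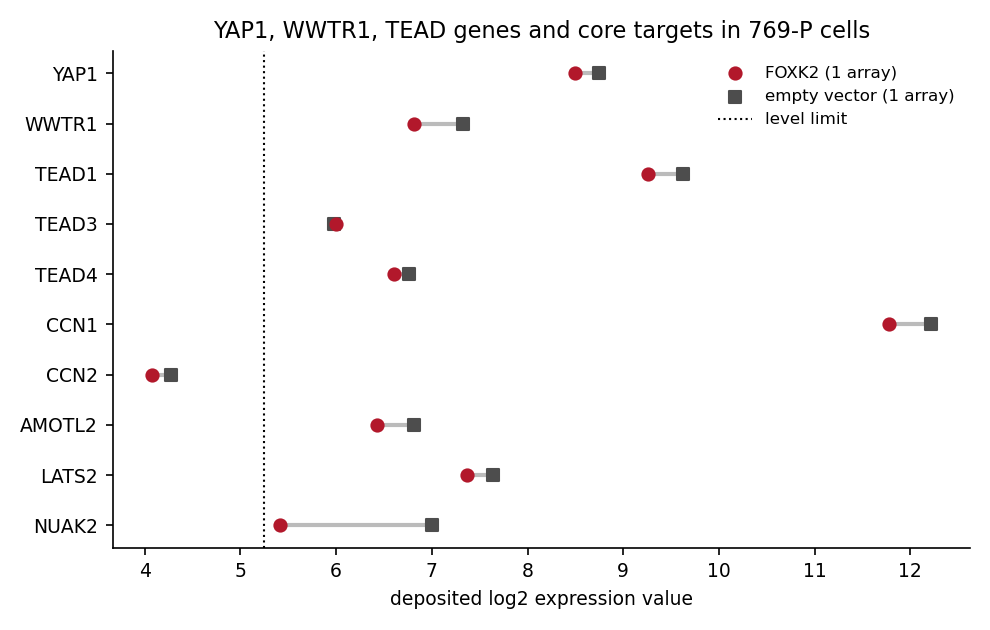
Deposited log2 expression values (x axis) of the 10 genes, with the FOXK2 array as circles and the empty vector array as squares, 1 array each; the dotted line is the level limit of 5.24. NUAK2 shows the widest gap (5.42 with FOXK2 against 7.01 with empty vector), TEAD3 the narrowest, and CCN2 lies below the limit in both arrays.

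The coactivators were both slightly lower with FOXK2. YAP1 had a log2 value of 8.50 with FOXK2 against 8.75 with empty vector, a difference of -0.25, and 29.8% of all genes above the limit had a lower one. WWTR1 had 6.81 with FOXK2 against 7.33 with empty vector, a difference of -0.52, with 12.8% of genes lower. Neither gene was near the 2-fold limit.

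Among the TEAD genes chosen, TEAD1 had the lowest difference. It stood at 9.26 with FOXK2 against 9.63 with empty vector, a difference of -0.37. TEAD4 had 6.61 with FOXK2 against 6.76 with empty vector, a difference of -0.15. TEAD3, at 6.00 with FOXK2 and 5.97 with empty vector, was the only one of the 10 genes with a positive difference, 0.03, and it became -0.04 when each array was centred on its median. The remaining family member, TEAD2, which is not among the 10, differed far more: it stood at 6.26 with FOXK2 and 7.47 with empty vector, which is 2.31-fold lower (difference -1.21), and none of its 50 neighbouring genes had a lower difference. The 4 TEAD genes thus ran from -1.21 to 0.03.

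NUAK2 encodes a kinase of the AMPK-related family that acts on actin and myosin. Its log2 value was 5.42 with FOXK2 against 7.01 with empty vector, which is 3.01-fold lower (difference -1.59), and it ranked 83 from the lowest of the 11263 genes. The value with FOXK2 is close to the level limit, and whether it lay above background is not known, so the fold is uncertain. The paralog NUAK1 had 6.32 with FOXK2 against 6.24 with empty vector, a difference of 0.08.

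CCN1 encodes a secreted matrix protein and is a direct target of YAP. It stood at 11.78 with FOXK2 against 12.21 with empty vector, a difference of -0.43, which is 1.35-fold lower. CCN2, the related connective tissue growth factor, stood at 4.07 with FOXK2 and 4.27 with empty vector. Both values lie below the level limit, and its difference was -0.20; its promoter holds the largest number of GGAATG matches of the 9 examined. Of the other CCN genes, CCN3 was 5.48 with FOXK2 against 6.47 with empty vector, a difference of -0.99 that lay just short of 2-fold. It passed 2-fold when the arrays were centred (-1.06) and after quantile normalization (-1.02). After removal of the loess trend it was -0.99, and after its neighbours' running median was subtracted -0.85. CCN4, CCN5 and CCN6 lay below the level limit in the mean, with differences of 0.21, 0.06 and 0.27.

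The targets that restrain YAP had small negative differences, although that of AMOTL2 was 0.04 once the running median of its neighbours was subtracted. LATS2, one of the kinases that phosphorylate YAP and TAZ, stood at 7.37 with FOXK2 against 7.64 with empty vector, a difference of -0.27. Its paralog LATS1 had 8.95 with FOXK2 against 9.11 with empty vector, a difference of -0.16. AMOTL2, a junction protein of the angiomotin family, stood at 6.43 with FOXK2 against 6.81 with empty vector, a difference of -0.38. The paralog AMOTL1 differed by -0.47, with 7.27 with FOXK2 against 7.74 with empty vector; AMOT shares its transcript cluster with a microRNA gene and was left out.

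**Figure D2:**
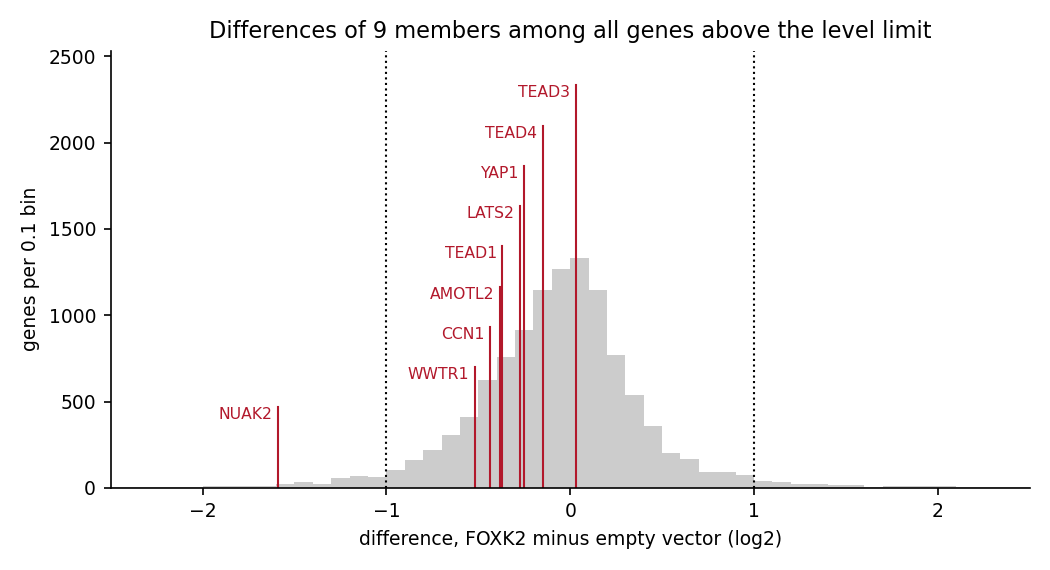
Differences (x axis, log2, FOXK2 minus empty vector) of the 11263 genes above the level limit, as a histogram drawn between -2.5 and 2.5, with a vertical line for each of the 9 genes above the limit; line height has no meaning and dotted lines mark 2-fold. NUAK2 stands apart at -1.59, and the other 8 lie between -0.52 and 0.03.

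Ordered by difference, NUAK2 was followed by WWTR1, CCN1, AMOTL2, TEAD1, LATS2, YAP1, CCN2, TEAD4 and TEAD3. The gap between NUAK2 and WWTR1 was 1.07. The next 8 gaps were between 0.01 and 0.18. The only spread that these arrays allow is that between transcript clusters of the same gene, whose differences disagreed by a median of 0.094 in 196 genes with several clusters above the limit. All of the gaps after the first except that between TEAD4 and TEAD3 (0.18) and that between TEAD1 and LATS2 (0.095) were smaller than this. It is a spread within 1 pair of arrays and leaves out the spread between cultures, so the order of these 9 genes is not established.

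Neighbouring genes moved with part of these differences. WWTR1 and AMOTL2 lie on chromosome 3, in a stretch where most genes had lower values with FOXK2. Around AMOTL2, 44 of the 50 nearest genes above the level limit had negative differences, with a median of -0.43, and 26 of them were lower than AMOTL2 itself. After the running median of 51 genes was subtracted, its difference was thus close to 0. Around WWTR1, 32 of 50 were negative, with a median of -0.24, beside 55.6% negative over all genes above the limit. These neighbours ran from -1.56 in the adjacent TM4SF1 to 2.90 in PLOD2. WWTR1 stood at -0.25 after the subtraction. NUAK2 on chromosome 1 was lower than all 50 of its neighbours, whose median was -0.09, and stood at -1.50 after the subtraction. YAP1 lies among genes with a median of 0.10 and stood at -0.34 after it. After this subtraction 7 of the 9 genes above the limit were negative, against 48.9% of all genes with such a value, and the part that the neighbourhood has in these differences was not tested.

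**Figure D3:**
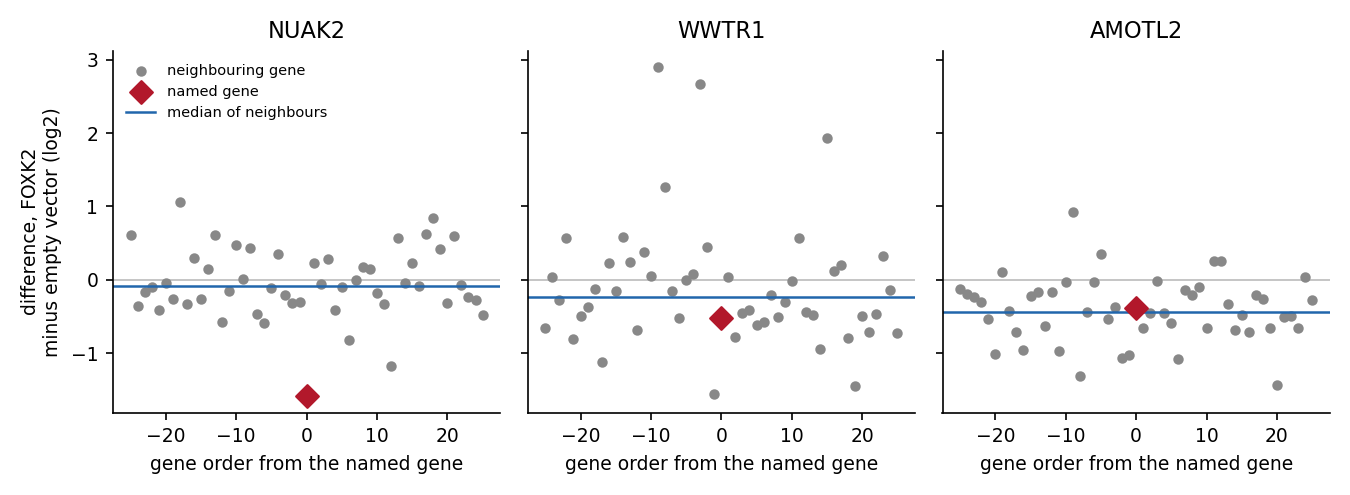
Differences (y axis, log2, FOXK2 minus empty vector) of NUAK2, WWTR1 and AMOTL2 (diamonds) and of their 50 nearest genes above the level limit on the chromosome (points), by gene order (x axis); the horizontal line is the median of the neighbours. NUAK2 lies below all of its neighbours, and AMOTL2 lies close to the median of its own, -0.43.

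Across the scalings tried, NUAK2 kept the lowest difference of the 10 genes. WWTR1 ran from -0.59 to -0.25, CCN1 from -0.50 to -0.34 and TEAD1 from -0.44 to -0.27. YAP1 ran from -0.34 to -0.15 and LATS2 from -0.34 to -0.18, and no gene other than NUAK2 reached 2-fold under any of these scalings.

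**Figure D4:**
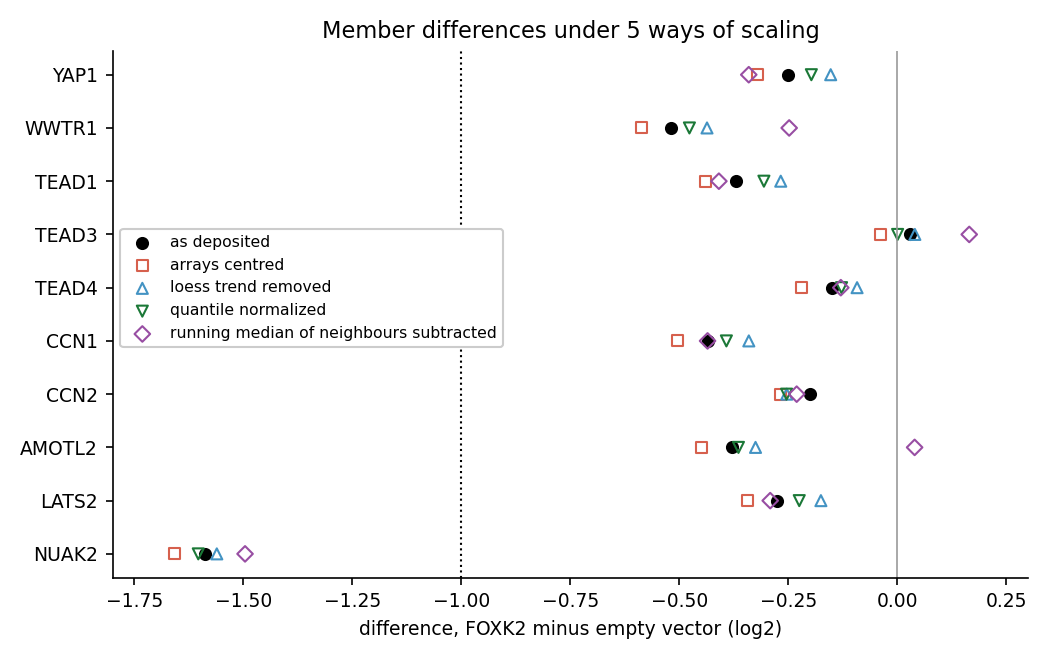
Differences (x axis, log2, FOXK2 minus empty vector) of the 10 genes under the values as deposited and 4 other scalings, 1 symbol per scaling; the dotted line marks 2-fold lower. NUAK2 stays between -1.66 and -1.50, whereas AMOTL2 runs from -0.45 to 0.04 and TEAD3 from -0.04 to 0.16.

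A list of 16 further YAP and TEAD target genes was drawn from a commonly used transcriptional signature, none of them among the 10. It included differences larger than those of the 10 genes other than NUAK2. Of the 11 above the level limit, 9 had negative differences, against 55.6% of all genes above the limit. At least 1.5-fold lower were 6, against 10.6%, and none was 1.5-fold higher, against 6.09%. Of these 6, MYOF (-0.523) and ASAP1 (-0.577) fell short of 1.5-fold, 0.585 in size, after their neighbours' running median was subtracted. AXL was the only one at least 2-fold lower, against 3.05% of all genes above the limit. The median over all 16 was -0.18, and over the 11 it was -0.78, the gap arising because the 5 genes below the limit, ANKRD1, F3, FOXF2, CCDC80 and TGFB2, had differences between -0.12 and 0.15.

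AXL, a receptor tyrosine kinase, stood at 9.73 with FOXK2 and 11.30 with empty vector, which is 2.98-fold lower (difference -1.57), and was lower than all 50 of its neighbours. NT5E, the ectonucleotidase CD73, had 12.38 with FOXK2 against 13.33 with empty vector, a difference of -0.95. It passed 2-fold when the arrays were centred (-1.02), but not after quantile normalization (-0.92) or removal of the loess trend (-0.86). MYOF, the membrane repair protein myoferlin, had 12.40 with FOXK2 against 13.31 with empty vector, a difference of -0.91 that was -0.52 after its neighbours' running median was subtracted. CRIM1, a transmembrane protein that binds BMPs, had 9.39 with FOXK2 against 10.27 with empty vector, a difference of -0.88. These 4 genes were named for having the largest differences of the list, so their size beside that of the 10 genes is not a finding. Among the 10, NUAK2 stood at -1.59, beside -1.57 for AXL. IGFBP3, a binding protein of insulin-like growth factors, had the highest difference of the list, 0.32.

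**Figure D5:**
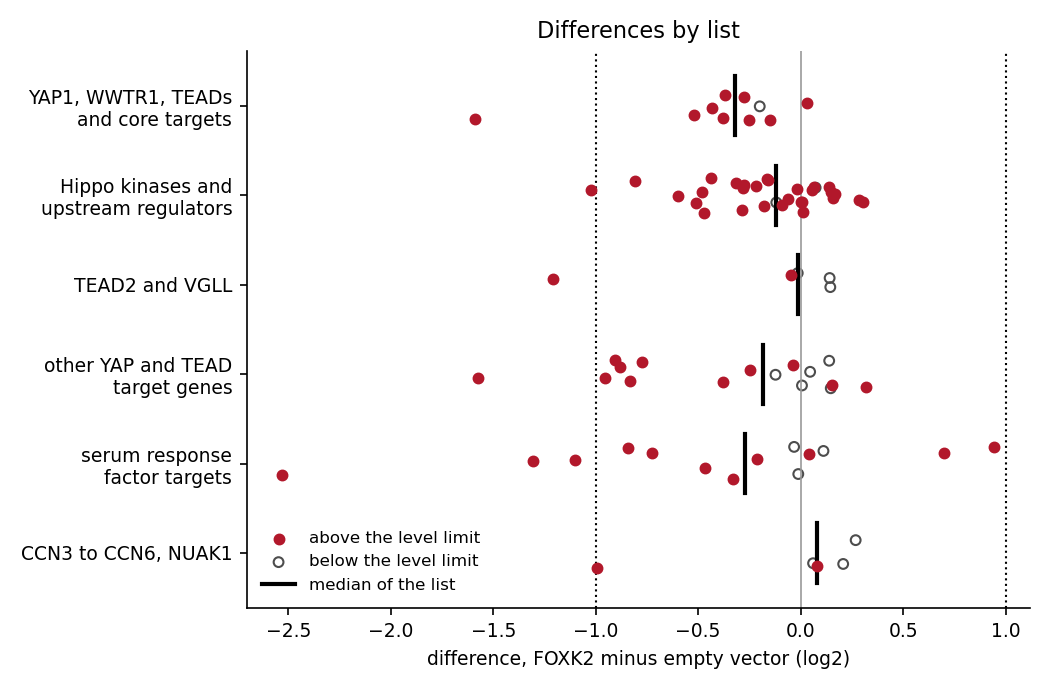
Differences (x axis, log2, FOXK2 minus empty vector) of the measured genes of each list (rows), filled above and open below the level limit, with the list median as a bar and 2-fold as dotted lines. The further YAP and TEAD targets above the limit gather to the left of 0, with AXL at -1.57, and the upstream regulators lie on both sides.

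The upstream part of the pathway held differences of both signs. Of 35 listed kinases, scaffolds and regulators, 31 were measured and 29 lay above the level limit, 18 of them with negative and 10 with positive differences, and the median over the 31 was -0.12. Negative differences were found in 55.6% of all genes above the limit, so these signs were close to the share over all genes. At least 1.5-fold lower were 3 of the 29, WWC1, MAP4K4 and PTPN14, which is also near the share of 10.6% over all genes above the limit. WWC1, the scaffold protein KIBRA, was the only one at the 2-fold limit: it averaged 7.47 with FOXK2 against 8.49 with empty vector, a difference of -1.02. Its brighter transcript cluster, at 10.19 with FOXK2 and 11.39 with empty vector, differed by -1.20, and the other, whose mean lay below the level limit, at 4.76 with FOXK2 and 5.60 with empty vector, by -0.84. The averaged difference was short of 2-fold after removal of the loess trend on level (-0.92) and after its neighbours' running median was subtracted (-0.67). MAP4K4, a kinase that can activate LATS kinases, stood at 9.52 with FOXK2 against 10.32 with empty vector, a difference of -0.81. PTPN14, a phosphatase that holds YAP in the cytoplasm and is itself a YAP target, had 13.63 with FOXK2 against 14.23 with empty vector, a difference of -0.60. PTPN14 was short of 1.5-fold after removal of the loess trend (-0.52), quantile normalization (-0.51) and subtraction of its neighbours' running median (-0.54). NF2, the tumour suppressor merlin, had 9.86 with FOXK2 against 10.37 with empty vector, a difference of -0.51. The core kinase genes were close to 0: STK3 differed by -0.06 and STK4 by 0.17, as did their adaptors SAV1 by 0.16, MOB1A by 0.15 and MOB1B by 0.14. Of the TEAD cofactors of the VGLL family, VGLL4, which competes with YAP, was the only one above the level limit and differed by -0.05.

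CCN1 and CCN2 are also targets of the serum response factor, so genes of the actin cytoskeleton under that factor were listed too. Of 14 measured, 11 lay above the level limit, 8 of them with negative and 3 with positive differences, where 55.6% of all genes above the limit were negative. At least 2-fold lower were 3, against 3.05% of all genes above the limit, and none was 2-fold higher, against 2.13%. At 1.5-fold, 5 of the 11 were lower, against 10.6%, and 2 were higher, against 6.09%. The median over the 14 was -0.27. CNN2, the actin-binding calponin 2, had 7.54 with FOXK2 and 10.07 with empty vector, which is 5.77-fold lower (difference -2.53). Its 50 neighbours were also mostly negative (45 of 50, median -0.38). CNN2 was lower than all 50 of them and stood at -2.13 after their running median was subtracted. VCL, vinculin of focal adhesions, had 12.36 with FOXK2 against 13.66 with empty vector, a difference of -1.30. TPM1, a tropomyosin, differed by -1.10, with 12.00 with FOXK2 and 13.10 with empty vector, and by -0.69 after its neighbours' running median was subtracted. TPM2, another tropomyosin, went the other way, with 8.10 with FOXK2 against 7.16 with empty vector, a difference of 0.94 that reached 1.22 after that subtraction. FHL2 was also higher, with 10.76 with FOXK2 against 10.06 with empty vector, a difference of 0.70. SRF itself differed by 0.04.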

How the data were processed

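Trizol-extracted total RNA was amplified and biotin-labelled with the Affymetrix WT PLUS kit, per the labels' protocols. Affymetrix Expression Console is the tool named in the submitters' processing notes; version, algorithm and build: not given in the sources used here. Log2 values were deposited for 67528 transcript clusters on 2 arrays, 1 per group; the log2 scale was inferred from their range of 2.13 to 19.93. Probe backgrounds were not used here, and the number of arrays limits the precision.

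Names came from the platform's annotation, updated by Entrez identifier with the RefSeq table of GRCh38.p14. 23781 transcript clusters carried 1 symbol and were used; 1543 carried several and 42204 carried none. Clusters of a gene were averaged, with no further normalization. The genes and lists were chosen with earlier results of these data known. Named genes were the 10 members, their paralogs, and the up to 4 most different genes of each list among those that reached the level limit. IGFBP3, ASAP1, SRF, FHL2, ACTN1, YWHAH, YWHAE, CSNK1D, TM4SF1 and PLOD2 were named after their values were seen. So were the core kinases STK3 and STK4, their adaptors and the 5 targets below the limit. Alternatives were centring, a loess trend (span 0.3), quantile normalization, the brightest cluster, subtraction of the running median of 51 genes, other level and fold limits, and protein-coding genes only. Software was Python 3.11.15 with pandas 2.3.3, numpy 2.4.6 and statsmodels 0.14.6, and the calculations were tested on simulated data.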

Additional observations from a re-analysis of the deposited data

How the results depend on the processing

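No paired analysis was possible because each group has 1 array. NUAK2 was the 1 member at least 2-fold lower under every normalization tried, without a level limit, among protein-coding genes and at a 1.5-fold or 3-fold limit, but 0 members were counted when the level limit was 1 higher, since the mean of NUAK2 then falls short. Over all genes, 1197 were lower and 686 higher at 1.5-fold, and 83 and 98 at 3-fold, against 344 and 240 at 2-fold. The median of the CCN3 to CCN6 and NUAK1 list, 0.08, was 0.18 after the running median was subtracted. With members above the level limit only, an alternative chosen after seeing the data, list medians were -0.63 for TEAD2 and VGLL genes against -0.01, -0.78 for the further targets against -0.18, -0.46 for serum response factor targets against -0.27, and -0.46 for the CCN list. Of 27 single genes, 13 moved by more than 0.094 after removal of the loess trend, 11 after subtraction of the running median and 1 with the brightest cluster; none of those called at 2-fold changed sign.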

Other observations

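A further list, added after the data had been seen, covers the handling of phosphorylated YAP. All 11 genes for retention and turnover, the 14-3-3 proteins that hold YAP in the cytoplasm and the casein kinases and F-box proteins that mark it for degradation, lay above the level limit and had negative differences, with a median of -0.34 and none at 2-fold. Over all genes above the limit, 55.6% had negative differences, the median was -0.05 and 3.05% were at least 2-fold lower. YWHAH (-0.05), YWHAE (-0.07) and CSNK1D (-0.08) differed by less than the 0.094 by which clusters of the same gene disagreed. After the running median of neighbours was subtracted all 11 stayed negative, with a median of -0.22. The list was not followed under the other scalings, where the share of negative differences over all genes ran from 48.8% to 64.0%. FBXW11, an F-box protein, stood at 8.27 with FOXK2 against 9.03 with empty vector. Its difference was -0.76, and -0.37 after its neighbours' running median was subtracted. YWHAG, a 14-3-3 protein, had 11.80 with FOXK2 against 12.51 with empty vector, a difference of -0.71, and SFN, another, had 8.22 with FOXK2 against 8.90 with empty vector, a difference of -0.67.

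Over all genes above the level limit with a promoter in the RefSeq table, the 1208 with GGAATG had a median difference of -0.06, beside -0.07 for the 7181 without it. At least 2-fold lower were 4.39% of those with it and 2.98% of those without. At least 2-fold higher were 2.98% and 2.07%. For the forkhead letters GTAAACA, 47.9% of the 307 genes with a match had a negative difference, beside 57.8% of the 8082 without. At least 2-fold lower were 3.26% and 3.18%, and at least 2-fold higher 2.93% and 2.18%. For the AP-1 letters TGANTCA, 5.25% of the 552 genes with a match were at least 2-fold lower, beside 3.04% of those without. The shares at least 2-fold higher were 2.54% and 2.18%. For the CArG box, 10.4% of the 125 genes with a match were at least 2-fold lower, beside 3.07% of the 8264 without. The shares at least 2-fold higher were 1.6% and 2.21%. From the list of serum response factor targets, the genes with a CArG box include CNN2 (-2.53) and ACTN1 (-0.73), but also SRF (0.04) and FHL2 (0.70). Base composition was not matched, and no test was made.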
